A study of Homo sapiens with 16 samples.

Results

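PDLIM5 and 8 further genes of LIM-domain proteins of the actin cytoskeleton were followed through RNA and ribosome-protected footprints in 4 breast cancer lines. The genes were chosen by symbol, as PDLIM5, which the study follows, its relatives PDLIM1, PDLIM2 and PDLIM7, the LIM kinases LIMK1 and LIMK2, and LIMA1, LASP1 and ZYX. Each symbol was found on 1 of the 10823 transcripts that the deposited tables list, so 9 of 10823 were members. The rule used no measured value, but the symbols were listed with earlier results of these data known. The study itself chose PDLIM5 partly on these libraries. MDA-MB-231, the parental line, came from a triple-negative breast cancer and has a low metastatic capacity. MDA-LM2 is a highly metastatic derivative of it, obtained by selection for growth in the lung. The other lines were MDA-MB-231 cells that carry dCas9-KRAB, a silencing fusion protein, sorted as a population and transduced with a guide RNA that serves as control (sgControl) or that directs the fusion to HNRNPC (sgHNRNPC). HNRNPC is a nuclear RNA-binding protein with a preference for runs of U. All cells grew in the same medium and were harvested before confluence. Each line had 2 footprint libraries and 2 RNA libraries, given by the methods as biological duplicates, which makes 16 libraries in 8 groups. A library pools all cells of a culture, so that fewer expressing cells and less RNA per cell cannot be told apart.

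The tables give normalised read counts, and list each gene by 1 transcript. RNA values give the amount of mRNA, and values of ribosome-protected footprints (RPF) give the mRNA fragments covered by translating ribosomes. Translational efficiency (TE) is the RPF value over the RNA value, and a change in TE on the log2 scale is what remains of the RPF change once the RNA change is taken off. RNA libraries held 7517953 to 8193031 reads in the parental and MDA-LM2 table and 5141959 to 6164753 in the table of sgControl and sgHNRNPC cells. RPF totals were 650736 to 679726 and 158011 to 167928 normalised counts, and their depth in reads is unknown. All 6 of 6 listed markers of MDA-MB-231 cells, among them VIM at 31464 to 44869 and 12133 to 13936 in RNA, were present in both tables. Of 6 luminal epithelial markers GATA3 alone was listed, at 8.46 to 18.6 in the first table, and the blood and vessel markers PTPRC, PECAM1 and HBB were listed in neither.

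A LIM domain is a pair of zinc fingers that binds other proteins, and many proteins with LIM domains sit on actin filaments, stress fibres and focal adhesions. PDLIM1, PDLIM2, PDLIM5 and PDLIM7 join a PDZ domain, which docks on actinin and other filament proteins, to LIM domains that bind signalling proteins. PDLIM5 (ENH) and PDLIM7 (Enigma) bind protein kinases through their LIM domains. LIMK1 and LIMK2 phosphorylate and thereby inactivate cofilin, which severs actin filaments, and so lie at the end of pathways from small GTPases. LIMA1 (EPLIN) cross-links and stabilises actin filaments, LASP1 is an adaptor at the leading edge and at adhesions, and ZYX (zyxin) is recruited to adhesions and stress fibres under tension.

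The sequences shown here are those that the RNA measurement of PDLIM5 turns on, since its gene has alternative 3′ ends and only 1 transcript was listed for it. The listed transcript, ENST00000514743, runs from 94455245 to 94665501 on the plus strand of chromosome 4 (hg38). It is 3356 nt long, with a coding sequence of 1878 nt and a 3′ UTR of 1434 nt, and is 1 of 23 annotated PDLIM5 transcripts. Another annotated transcript has a coding sequence of the same 1878 nt and a 3′ UTR of 4160 nt that ends at 94668227, which adds 2726 nt. Primers made to tell a proximal from a distal 3′ end of PDLIM5 were matched to the genome:
Proximal primer, chr4:94665408-94665428: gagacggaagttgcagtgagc
Distal primer, chr4:94667984-94668003: gatctggcttccatttgtcc
The proximal primer lies in the 3′ UTR of the listed transcript from position 1341, counted from the base after the stop codon, and has 12 exact matches on chromosome 4. That position is in the part shared with the longer form. The match occurs in 6 annotated PDLIM5 transcripts, against 3 for the distal primer. The distal primer begins 2483 nt past the end of the listed transcript. Reads from the extension therefore have no place in the listed transcript, and the RNA values below count the shared part of both forms without separating them.

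C followed by 6 U was searched on the sense strand as a poly(U) motif, and AAUAAA and AUUAAA as the polyadenylation signals that direct cleavage. The listed 3′ UTR of PDLIM5 held 0 copies of the poly(U) motif and the extension held 1. LIMK1 and LASP1 held 1 each in their listed 3′ UTRs, and the other 6 members held 0. Each copy is given with the motif and the rest of its U run in capitals, of which the search itself fixed the C and the first 6 U:
PDLIM5 extension, position 3344, chr4:94667403-94667429: uguacaaaCUUUUUUUUgucauuaaac
LIMK1, position 635, chr7:74121928-74121954: cuuuggguCUUUUUUUUguuucuuucu
LASP1, position 2674, chr17:38921444-38921470: uuuugggcCUUUUUUUauagcuggaaa
The runs were 8, 8 and 7 U long. Among the transcripts with a 3′ UTR in the annotation, 42.9% held the motif in the MDA-LM2 table and 43.2% in the knockdown table, so 2 of 9 listed members is a lower share over few genes. Every member held AAUAAA at least once, against 81.4% of transcripts. PDLIM5 held 4 copies in its shared part and 6 in the extension, and 3 and 3 copies of AUUAAA. The last AAUAAA before each annotated end of PDLIM5 is shown in capitals with its flanks:
Listed transcript, position 1124, chr4:94665183-94665204: uuaaagagAAUAAAuagagggc
Longer transcript, position 4133, chr4:94668192-94668213: acucaauaAAUAAAugacugca
The first ends 305 nt before the end of the listed transcript and the second 22 nt before the end of the longer one. A match is a string of letters and says nothing of binding or use.

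**Figure D1:**
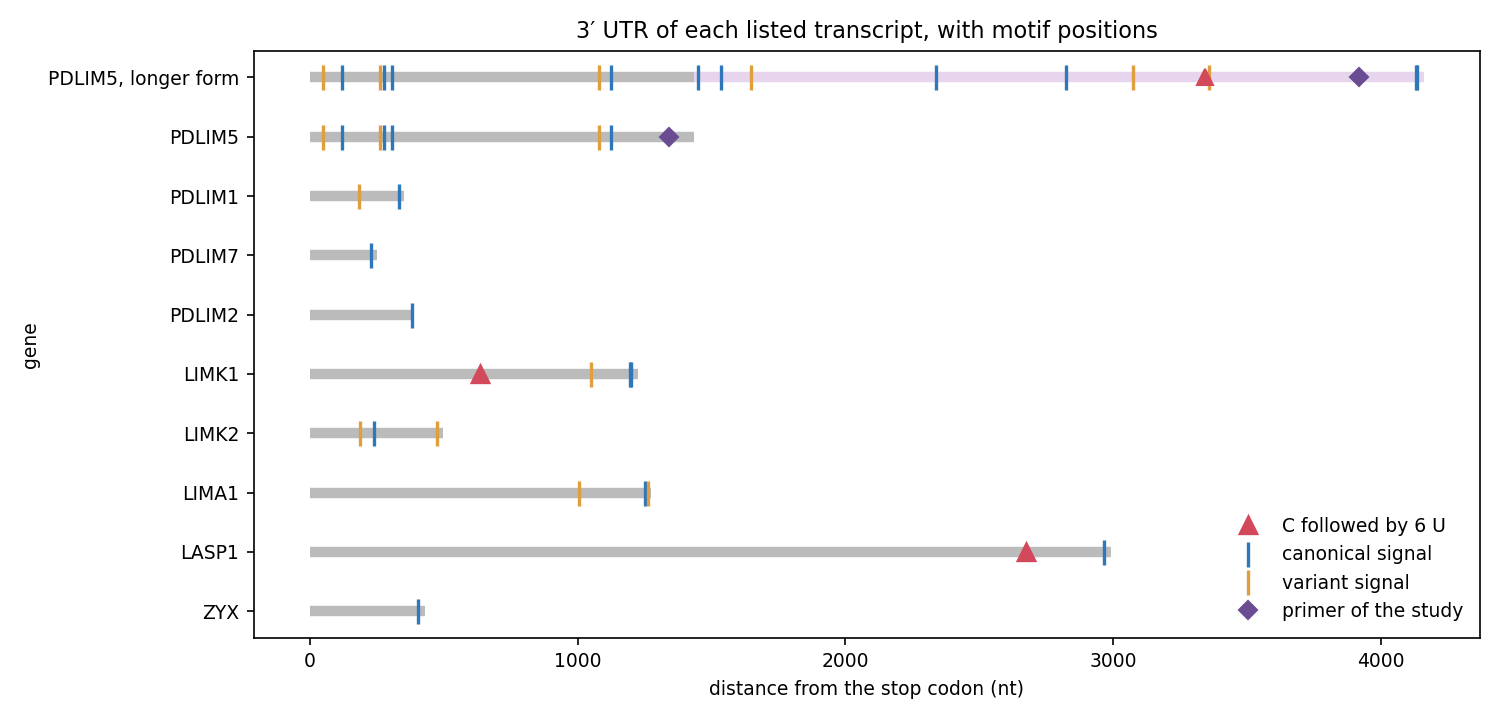
3′ UTRs of the 9 listed transcripts and of the longer PDLIM5 form, drawn to scale as distance from the stop codon in nt, with triangles for C followed by 6 U, ticks for the 2 polyadenylation signals and diamonds for the primers. The 1 poly(U) motif of PDLIM5 and its distal primer lie in the paler extension beyond 1434 nt, and LIMK1 and LASP1 carry 1 motif each. The proximal primer is drawn on the listed form only, though the longer form shares its position.

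HNRNPC, the targeted gene of the knockdown, had RNA values of 2162 and 2146 in sgControl cells and 1147 and 1183 in sgHNRNPC cells. The RNA fell by 0.89 ± 0.05 on the log2 scale (± SE), and limma gave this an adjusted p of 5.14e-28. RPF values of HNRNPC were 73.4 and 110.9 against 54.4 and 67.0, a change of -0.57 ± 0.19 with an adjusted p of 0.467. In MDA-LM2 against parental cells the HNRNPC RNA change was -0.40 ± 0.12 (adjusted p = 0.0618). It ranged from -0.49 to -0.31 with 1 library left out.

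In MDA-LM2 against parental cells, PDLIM5 was lower and LIMA1 higher in both RNA and RPF, and LIMK1 was lower in RNA. PDLIM5 RNA stood at 63.2% and its RPF at 49.9% of the parental mean. LIMK1 RNA stood at 43.9% and LIMA1 RNA at 153%. PDLIM1, PDLIM7, LIMK2, LASP1 and ZYX passed the test in no measure. The tables were fitted whole by limma, which steadies the variance of each gene with that of all genes, on log2 of the value plus 1, for genes with means of at least 10 in RNA and in RPF, and calls were made at p under 0.05 after Benjamini-Hochberg adjustment. Of the 9 members 8 passed the filter on low values, and PDLIM2 did not. In RNA 3 of the 8 were called, 1 higher and 2 lower, against 15.2% of the 8393 genes tested, of which 5.8% were higher and 9.44% lower. In RPF 2 of 8 were called, 1 higher and 1 lower, against 12% of genes, with 5% higher and 7.03% lower. In TE 0 of 8 were called, against 0.0357% of genes, with 0.0238% higher and 0.0119% lower. At an unadjusted p under 0.05, 3 members and 455 genes passed in TE. The median change of the members was 0.04 in RNA, -0.17 in RPF and -0.22 in TE, beside -0.02, -0.01 and 0.03 over all genes. Scaling each library to the same total moved the median of all genes to 0.15 in RNA and -0.08 in TE, and turned the split of called RNA changes from 487 higher and 792 lower to 994 and 498, and that of RPF changes from 420 and 590 to 566 and 477.

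In sgHNRNPC against sgControl cells, PDLIM5 was the member whose RNA passed the test, at 74.9% of the control mean. Its RPF stood at 48.7% of control without passing the test across all genes. Of the 9 members 6 were tested, and PDLIM2, LIMK1 and LIMK2 fell under the filter. The 1 call among 6 in RNA stands against 16% of the 4283 genes tested, of which 4.72% were higher and 11.3% lower. In RPF 0 of 6 were called, against 0.0233% of genes, with 1 member and 329 genes at an unadjusted p under 0.05. In TE 0 of 6 were called, against 0% of genes, with 0 members and 332 genes at that unadjusted level. Members had median changes of -0.02 in RNA, 0.06 in RPF and -0.02 in TE, beside -0.04, 0.02 and 0.06 over all genes.

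**Figure D2:**
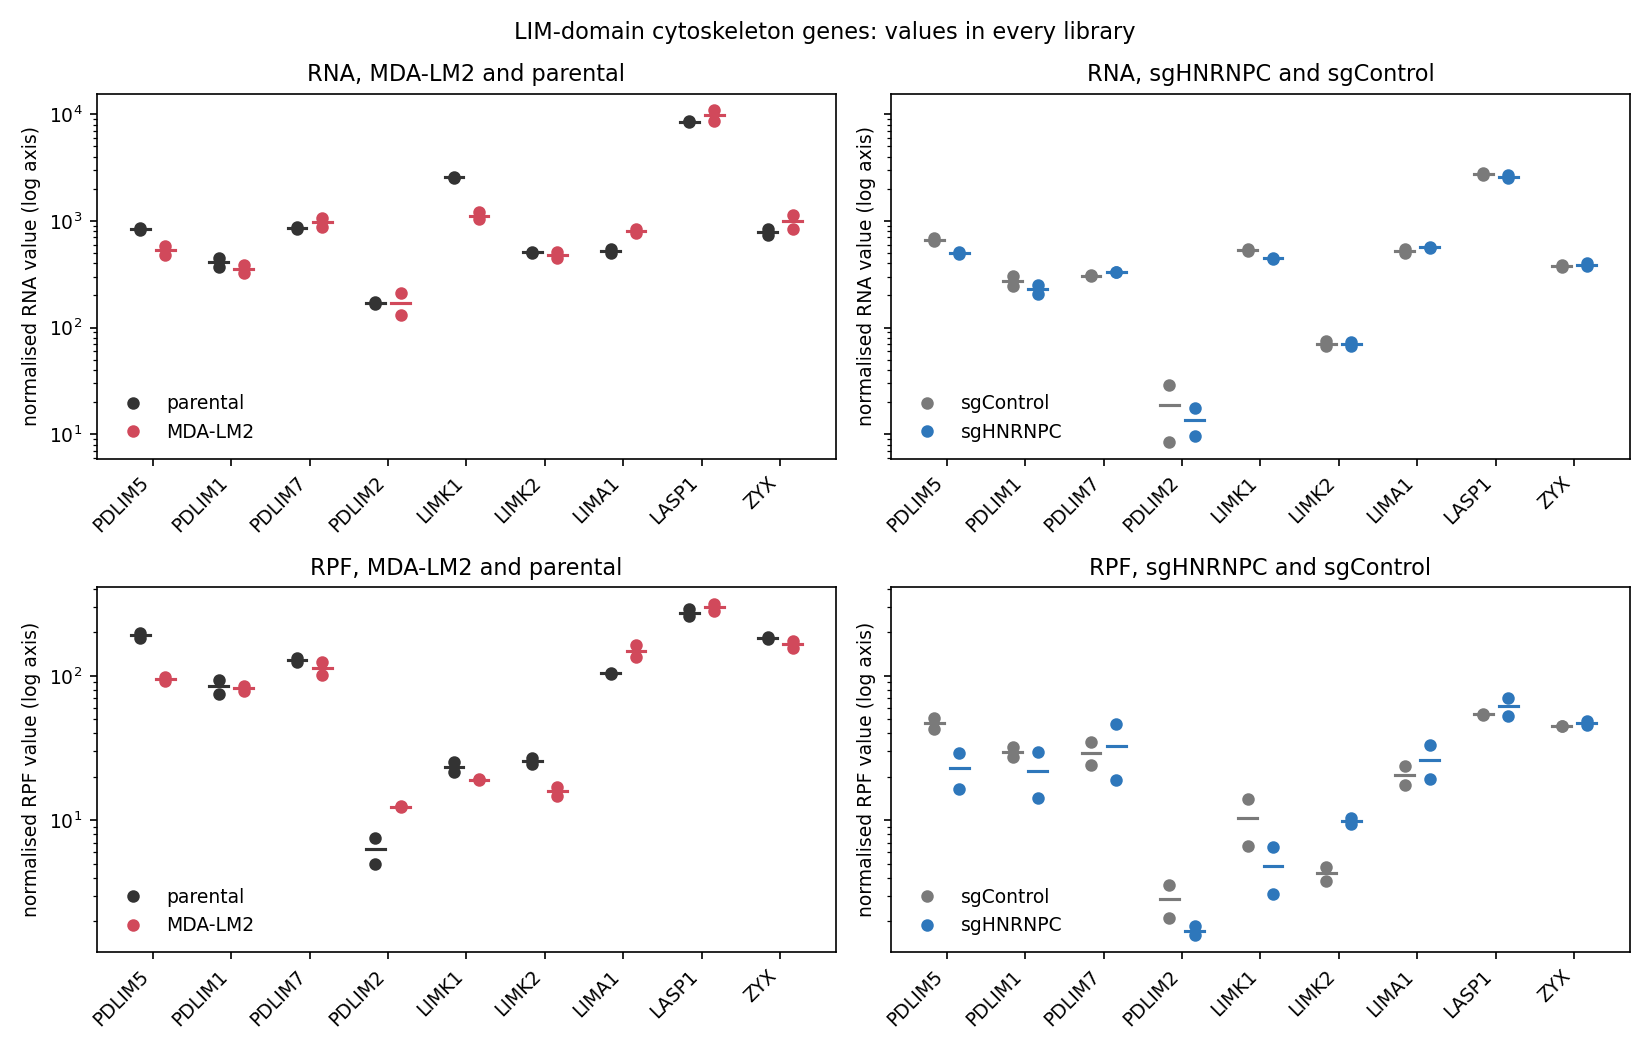
Normalised RNA (top) and RPF (bottom) values of the 9 genes on a log axis, with MDA-LM2 and parental cells on the left and sgHNRNPC and sgControl cells on the right. Points are single libraries and bars are means of 2, and the PDLIM5 points of MDA-LM2 and of sgHNRNPC cells lie below both of their control points in all panels.

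PDLIM5 had RNA values of 818 and 867 in parental cells and 481 and 585 in MDA-LM2 cells. Footprint values went from 184 and 198 to 98.3 and 92.2. Both MDA-LM2 libraries lay below both parental ones in each kind, with no overlap. The RNA fell by 0.67 ± 0.13 (adjusted p = 0.0178) and the RPF by 1.00 ± 0.13 (adjusted p = 8.58e-07), and 1.93% of genes had a lower RPF change. The RPF call held without each library in turn, with adjusted p from 8.76e-09 to 6.91e-06. The RNA call did not: the adjusted p was 0.0671 without parental replicate 1 and 0.11 without parental replicate 2. With libraries scaled to equal totals the RNA change was -0.50 (adjusted p = 0.0598), and relative to the median of all genes it was -0.65 as deposited. The TE change of -0.33 ± 0.19 did not pass (unadjusted p = 0.107, adjusted p = 0.907), and 11.5% of genes had a lower one. This TE change was not called by logistic regression either, which takes reads rather than libraries as units. It was -0.52 when MDA-LM2 replicate 1 was left out and -0.14 when replicate 2 was.

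In the knockdown table, PDLIM5 RNA values were 643 and 685 in sgControl cells and 508 and 487 in sgHNRNPC cells. RPF values were 51.0 and 42.7 against 29.2 and 16.4. All sgHNRNPC values lay below all sgControl values of their kind, and the sgHNRNPC footprints differed more between replicates, in proportion to their mean, than any other PDLIM5 pair. The RNA fell by 0.42 ± 0.07 (adjusted p = 4.17e-06), a call kept without each library in turn. The RPF change was -1.06 ± 0.25 with an unadjusted p of 0.000228 and an adjusted p of 0.211, and 20 of the 4283 genes tested had a lower one. Without sgHNRNPC replicate 1 this change was -1.45, and without sgHNRNPC replicate 2 it was -0.66. The TE change was -0.64 ± 0.32 (unadjusted p = 0.0798, adjusted p = 0.642), with -1.01 without sgHNRNPC replicate 1 and -0.27 without sgHNRNPC replicate 2. The study chose PDLIM5 partly on these libraries, in a search for mRNAs repressed in translation in MDA-LM2 and HNRNPC-deficient cells. It also required a switch to the distal 3′ end and binding by HNRNPC and the poly(A)-binding protein PABPC4, from other assays. The PDLIM5 values here are therefore no independent evidence of its direction. The study reports less PDLIM5 protein in both conditions and a similar abundance of its mRNA, whereas the RNA values here were lower in both comparisons. The main text of the study does not name the assay behind its mRNA statement, so the measures may differ. As given above, the RNA call in MDA-LM2 cells was lost with equal totals.

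PDLIM1 (CLP36), which links actinin to stress fibres, had RNA values of 369 and 452 in parental cells and 326 and 383 in MDA-LM2 cells. In RPF it had 93.9 and 75.1 against 78.7 and 85.1. The groups overlapped in both kinds. The changes were -0.21 ± 0.15 in RNA (adjusted p = 0.374), -0.04 ± 0.16 in RPF and 0.17 ± 0.24 in TE. With 1 library left out the RNA change ranged from -0.35 to -0.06. In the knockdown, RNA values of 303 and 247 stood against 253 and 206, and RPF values of 27.5 and 31.9 against 29.9 and 14.3. These groups overlapped as well, with an RNA change of -0.26 ± 0.11 (adjusted p = 0.0941) and an RPF change of -0.50 ± 0.29 (adjusted p = 0.726). With 1 library left out this RNA change ranged from -0.41 to -0.12.

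PDLIM7, an adaptor of stress fibres first described as a partner of the insulin receptor, had RNA values of 843 and 885 in parental cells and 875 and 1070.2 in MDA-LM2 cells. In RPF these were 125 and 133 against 102 and 125, and the groups overlapped in both kinds. The changes of 0.16 ± 0.13 in RNA, -0.19 ± 0.14 in RPF and -0.35 ± 0.20 in TE did not pass, with adjusted p of 0.427, 0.422 and 0.907. With 1 library left out the RNA change ranged from 0.02 to 0.31. Knockdown RNA values were 302 and 313 in sgControl cells and 331 and 334 in sgHNRNPC cells, which did not overlap but differed by only 0.12 ± 0.09 (adjusted p = 0.457). Its sgHNRNPC footprints, at 19.1 and 46.2, lay on either side of the sgControl ones at 34.6 and 24.2.

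PDLIM2 (Mystique), which takes part in the turnover of nuclear signalling factors besides its place on the cytoskeleton, was scarce. Its RNA values were 173 and 166 in parental cells and 211 and 132 in MDA-LM2 cells, and its RPF values were 4.96 and 7.59 against 12.3 and 12.5. Both MDA-LM2 footprint values lay above both parental ones while the RNA values overlapped. With no filter on low values the RPF change was 0.90 ± 0.44 (adjusted p = 0.223 over 10799 transcripts). In the knockdown table no PDLIM2 value exceeded 29.0 in RNA or 3.59 in RPF.

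LIMK1, the LIM kinase downstream of Rac and PAK, had RNA values of 2568 and 2543 in parental cells and 1199.8 and 1042 in MDA-LM2 cells. Its RPF values were 25.1 and 21.6 against 19.4 and 18.8. Both kinds were lower in both MDA-LM2 libraries, the RNA by far more than the footprints. The RNA fell by 1.19 ± 0.12 (adjusted p = 0.00127), the lowest change of any member, with 1.14% of genes lower. The RPF change was -0.27 ± 0.29 (adjusted p = 0.619), so the TE change was 0.92 ± 0.20, above that of 99.1% of genes. This TE change had an unadjusted p of 0.000578 and an adjusted p of 0.423, and it rests on footprint values near 20. In the knockdown LIMK1 RNA values were 518 and 551 against 449 and 443, and RPF values 6.67 and 13.98 against 6.48 and 3.09, under the filter. With no filter the LIMK1 RNA fell by 0.26 ± 0.08 (adjusted p = 0.0126 over 8980 transcripts) and the RPF change was -0.95 ± 0.49 (adjusted p = 0.75).

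LIMK2, the LIM kinase of the ROCK branch, had similar RNA in both lines, at 503 and 516 against 512 and 448. RPF values of 26.9 and 24.4 in the parental line stood against 17.1 and 14.8 in MDA-LM2, which did not overlap. Neither the RPF change of -0.65 ± 0.30 (adjusted p = 0.167) nor the TE change of -0.57 ± 0.24 (adjusted p = 0.903) passed. In the knockdown the footprints were few and stood the other way, with 4.77 and 3.81 in sgControl cells and 9.37 and 10.3 in sgHNRNPC cells, against RNA values of 74.2 and 67.3 and of 67.1 and 73.1. With no filter that RPF change was 1.04 ± 0.48 (adjusted p = 0.69).

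LIMA1, the filament stabiliser, had RNA values of 501 and 549 in parental cells and 770 and 835 in MDA-LM2 cells. The footprints of LIMA1 were 105 and 104 against 134 and 163. Both MDA-LM2 values lay above both parental ones in each kind. The RNA rose by 0.61 ± 0.12 (adjusted p = 0.0154) and the RPF by 0.50 ± 0.14 (adjusted p = 0.0116), with a TE change of -0.11 ± 0.19. The RNA call was lost without parental replicate 1 (adjusted p = 0.211) or parental replicate 2 (0.0713), and the RPF call without MDA-LM2 replicate 2 (0.36, adjusted p = 0.229). In the knockdown, LIMA1 RNA was 544 and 496 against 571 and 561, and RPF 23.8 and 17.5 against 19.3 and 33.1. Neither the RNA change of 0.12 ± 0.07 (adjusted p = 0.272) nor the RPF change of 0.30 ± 0.29 passed.

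LASP1, the adaptor of the leading edge, was the most abundant member, with RNA values of 8474.5 and 8549 in parental cells and 10933 and 8678 in MDA-LM2 cells. Its RPF values were 289 and 259 against 316 and 280. The RNA values did not overlap, but MDA-LM2 replicate 2 lay close to the parental ones, and the change of 0.19 ± 0.15 did not pass (adjusted p = 0.402). It ranged from 0.03 to 0.36 with 1 library left out, and passed after quantile normalisation (0.44, adjusted p = 0.034). The RPF change was 0.12 ± 0.11. In the knockdown LASP1 RNA was 2676 and 2815 against 2668 and 2534, and RPF 53.9 and 54.4 against 52.7 and 70.4, with changes of -0.08 ± 0.04 and 0.17 ± 0.19 that did not pass.

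ZYX, the tension sensor of adhesions, had RNA values of 734 and 837 in parental cells and 839 and 1146 in MDA-LM2 cells. In RPF it had 186 and 179 against 173 and 156. RNA values were higher and RPF values lower in both MDA-LM2 libraries, with neither change past the threshold: 0.32 ± 0.17 in RNA (adjusted p = 0.228) and -0.15 ± 0.12 in RPF (adjusted p = 0.484). With 1 library left out the RNA change ranged from 0.10 to 0.55. The TE change was -0.47 ± 0.21 (adjusted p = 0.903), with -0.77 when MDA-LM2 replicate 1 was left out and -0.17 when replicate 2 was. By the logistic regression of the study's methods, which takes reads rather than libraries as units, the same change was -0.48 with an adjusted p of 0.00555. Knockdown values were alike, at 368 and 390 against 402 and 376 in RNA and 44.6 and 44.98 against 45.7 and 48.9 in RPF.

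**Figure D3:**
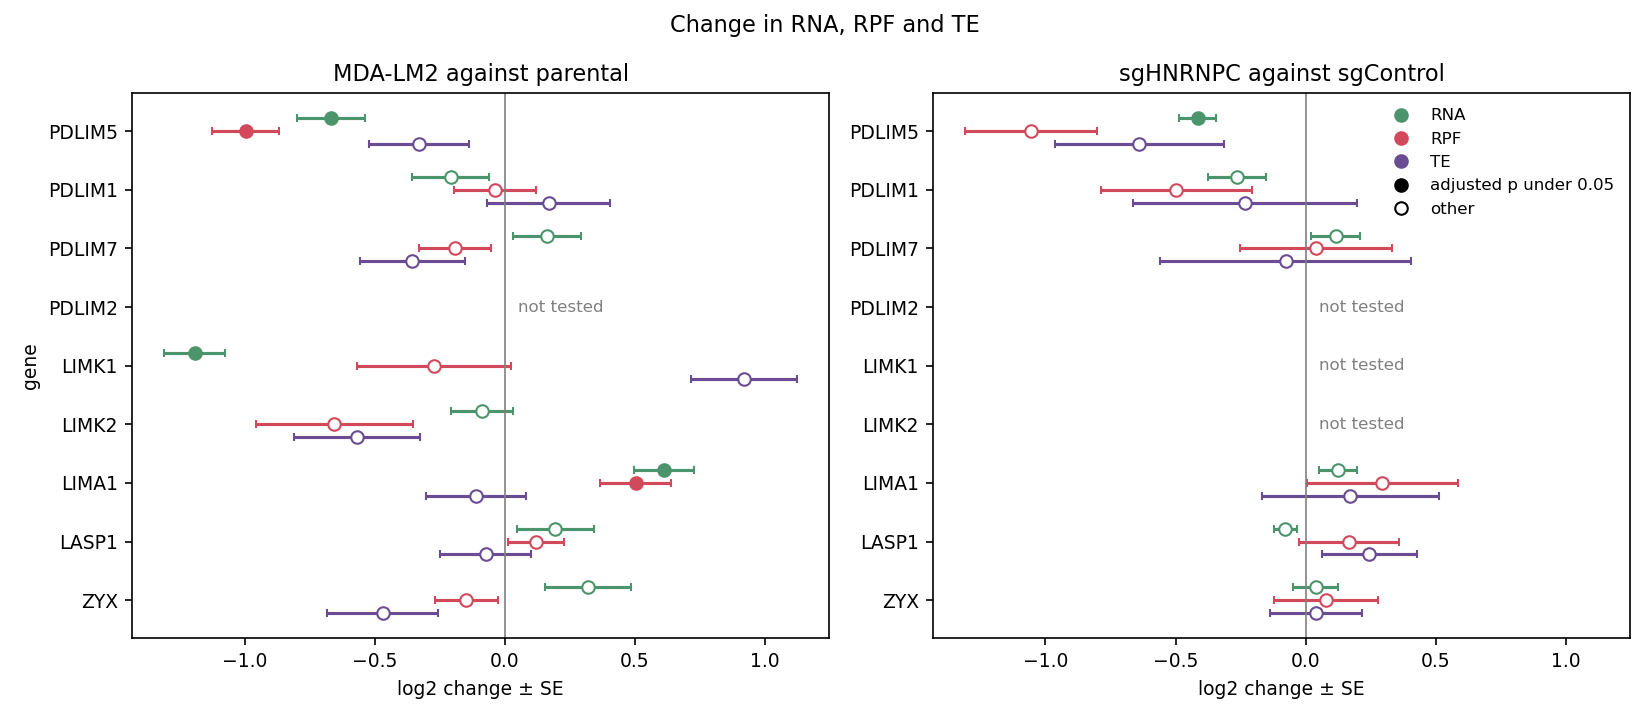
Log2 change ± SE of RNA, RPF and TE for each gene, with MDA-LM2 against parental cells on the left and sgHNRNPC against sgControl cells on the right, and filled points for an adjusted p under 0.05. Filled points are PDLIM5, LIMK1 and LIMA1 in RNA and PDLIM5 and LIMA1 in RPF on the left, and PDLIM5 in RNA on the right.

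The change of each member was then set against that of PDLIM5, with the 2 standard errors combined and p-values adjusted over all genes. In MDA-LM2 cells, 6 of 7 members differed from PDLIM5 in RNA change, against 65.5% of all genes, and 6 of 7 in RPF change, against 84.8%. PDLIM1 did not pass in RNA, where it lay 0.46 ± 0.20 above PDLIM5 (adjusted p = 0.0727), and LIMK2 did not pass in RPF, at 0.34 ± 0.33 above (adjusted p = 0.32). LIMK1 RNA lay 0.53 ± 0.18 below PDLIM5 (adjusted p = 0.0335), and the other members lay above it. In the knockdown, 4 of 5 members differed in RNA change, against 81.2% of genes, and 4 of 5 in RPF change, against 73.5%. PDLIM1 passed in neither, at 0.15 ± 0.13 in RNA (adjusted p = 0.27) and 0.56 ± 0.39 in RPF (adjusted p = 0.174). In TE change 0 of 7 and 0 of 5 members differed from PDLIM5, against 0.0238% and 0% of genes. Every one of these differences contains the change of PDLIM5 itself, and the shares lie near those of all genes, so they are no result about the relatives. Without sgControl replicate 1 or sgHNRNPC replicate 2, 0 members differed from PDLIM5 in knockdown RPF change. Without parental replicate 1 or 2, 2 members differed in RNA change in MDA-LM2 cells.

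Levels of different genes were compared per length, as RNA per kb of transcript and RPF per kb of coding sequence. LASP1 had the highest level of both in all 4 lines, with 2177 RNA per kb and 348 RPF per kb in parental cells. In RNA per kb of parental cells it was followed by LIMK1 at 762, PDLIM7 at 505, ZYX at 353, PDLIM1 at 287, PDLIM5 at 251, LIMK2 at 183, LIMA1 at 143 and PDLIM2 at 75.7. Of these neighbours, PDLIM1 and PDLIM5 alone had overlapping replicates. In RPF per kb, ZYX at 106 and PDLIM5 at 102 overlapped, as did PDLIM7 at 93.8 and PDLIM1 at 85.4, and LIMK2 at 12.4 and LIMK1 at 12.02. Levels of LIMA1 at 45.6 and PDLIM2 at 3.47 stood apart. In MDA-LM2 cells PDLIM5 stood at 50.7 RPF per kb, below LIMA1 at 65.1, and at 159 RNA per kb, with replicates overlapping those of LIMK2 at 172.

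TE per length, the ratio of these levels, was highest for PDLIM5 in parental cells at 0.405, with 68.1% of the 8208 genes with annotated lengths below it. LIMA1, PDLIM1 and ZYX followed at 0.319, 0.304 and 0.302 with overlapping replicates, then PDLIM7 at 0.186, LASP1 at 0.160, LIMK2 at 0.0682 and PDLIM2 at 0.0460. LIMK1 was lowest at 0.0158, with 0.219% of genes below it, while the median gene had 0.258. LIMK1 was the lowest member in each of the 4 lines, and the share of genes below it was 0.828% in MDA-LM2, 4.56% in sgControl and 0.764% in sgHNRNPC cells. In sgControl and sgHNRNPC cells LIMK1 was itself under the filter on low values, while these shares are of genes that passed it. In parental cells LASP1 alone had more RNA per kb than LIMK1, and PDLIM2 alone had fewer footprints per kb. PDLIM5 was above 59.0% of genes in MDA-LM2, 60.9% in sgControl and 33.3% in sgHNRNPC cells, where its replicates overlapped those of LASP1 and LIMA1, its neighbours in the order. Footprints were assigned to codons of the coding sequence while RNA reads cover the whole transcript, so these ratios depend on the listed transcript, and levels of the 2 tables were normalised separately.

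**Figure D4:**
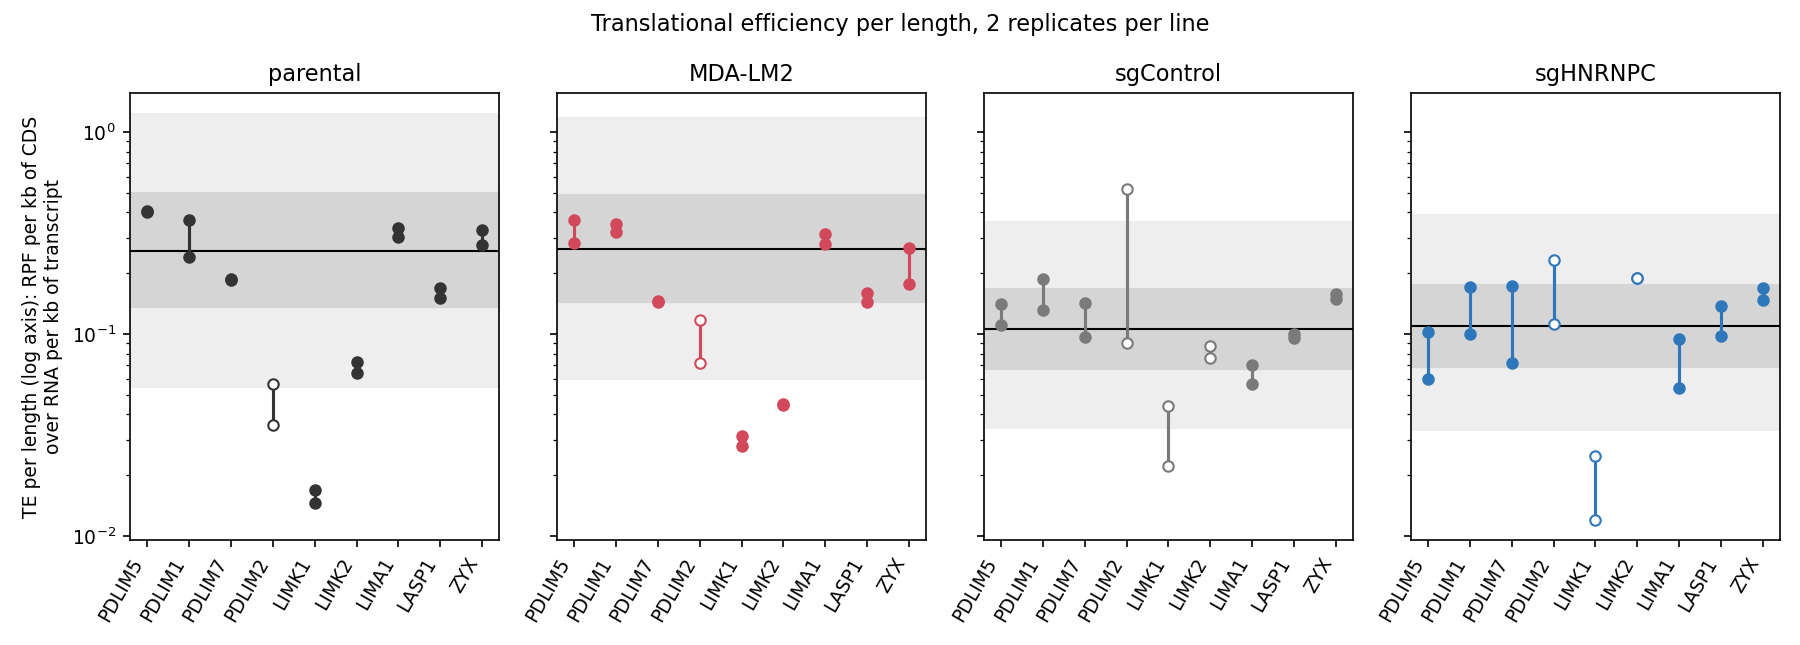
TE per length on a log axis in each line, with 2 joined points per gene for the replicates, open where the gene was under the filter, a line for the median of all genes and bands for the middle 50% and 90%. LIMK1 lies lowest in all 4 panels, at 0.0158 in parental cells against a median of 0.258.

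Of the 4279 other genes tested in both tables, those whose 4 changes (RNA and RPF in both comparisons) lay nearest to those of PDLIM5 were NRG1, MORC4, ENPP1, COPRS and CDC42EP3. Their root mean square differences from PDLIM5 on the log2 scale were 0.177, 0.190, 0.220, 0.247 and 0.261. NRG1, a ligand of ERBB receptors, had changes of -0.86 and -1.11 in RNA and RPF in MDA-LM2 cells and of -0.35 and -0.79 in the knockdown. Its knockdown RNA change was -0.68 without sgHNRNPC replicate 1 and -0.017 without sgHNRNPC replicate 2. ENPP1, an ectonucleotidase, had changes of -0.66 and -0.79, and of -0.76 and -0.88. CDC42EP3, an effector of CDC42 that organises actin and septins, had changes of -0.52 and -0.63, and of -0.29 and -0.73. MORC4 had changes of -0.67 and -0.69, and of -0.35 and -0.84. COPRS had changes of -0.91 and -0.89, and of -0.05 and -0.87, so its knockdown RNA was not like that of PDLIM5. The nearest member was PDLIM1, 415th of 4279 at 0.605, while LIMA1 was 4145th at 1.22. The measure ranks likeness over 4 changes and was not tested.

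**Figure D5:**
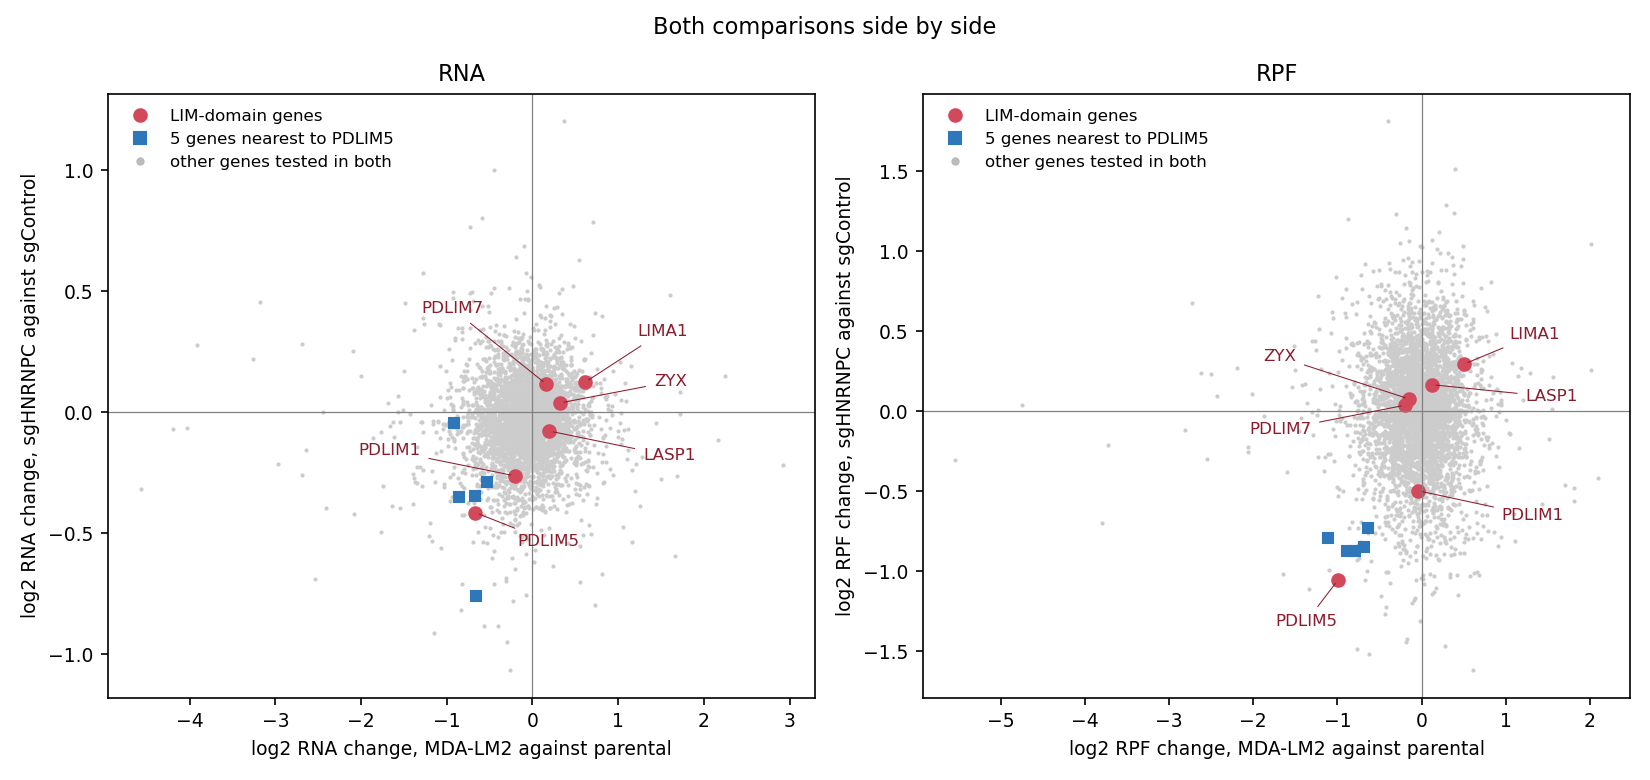
Log2 change in MDA-LM2 against parental cells (horizontal) and in sgHNRNPC against sgControl cells (vertical) for RNA (left) and RPF (right), for genes tested in both tables. PDLIM5 lies at -0.67 and -0.42 in RNA and at -0.995 and -1.06 in RPF, with the 5 nearest genes as squares beside it and LIMA1 on the opposite side of zero.

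Other genes around the members were read from 3 lists: LIM-domain cytoskeleton genes that are not members, the LIM kinase and cofilin pathway, and stress fibre and focal adhesion partners. In MDA-LM2 RPF, 2 of 22 tested genes of the first list were higher and 4 lower, against 5% and 7.03% of all genes, with a median of 0.09. PDLIM4 (RIL), a PDZ and LIM protein of stress fibres, went from 53.6 and 56.4 to 29.5 and 30.4 in RPF, a fall of 0.86 ± 0.21 (adjusted p = 0.00573) kept without each library in turn. PDLIM3 (ALP), the muscle relative, had RPF values of 1.76 and 9.67 in parental cells and 20.0 and 15.4 in MDA-LM2 cells. It passed the filter only through the MDA-LM2 libraries and counts among the 2 higher genes, so its call is no support for a difference. MICAL3, an actin monooxygenase, rose by 0.97 ± 0.33 (adjusted p = 0.0499). It lost its call with 0.5 added before the logarithm (adjusted p = 0.0517), with no filter (0.0659) and after quantile normalisation (0.0603). It also lost it without parental replicate 1 (0.64, adjusted p = 0.282) or MDA-LM2 replicate 1 (0.71, adjusted p = 0.374), and reached 0.05 without MDA-LM2 replicate 2. In RNA the same list had 1 gene higher and 4 lower, against 5.8% and 9.44% of all genes, with a median of -0.07. The 1 higher gene was PDLIM3, so that count is no support for a difference either. PDLIM4 RNA fell by 0.97 ± 0.12 (adjusted p = 0.00348) and MICAL3 RNA rose by 0.43 ± 0.13 (adjusted p = 0.0663).

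In the LIM kinase and cofilin pathway 0 of 20 genes were higher and 5 lower in MDA-LM2 RPF, against 5% and 7.03% of all genes, with a median of -0.29. In RNA 0 were higher and 4 lower, against 5.8% and 9.44%, with a median of -0.25. DSTN (destrin), which severs actin filaments like cofilin, went from 190.5 and 171 to 119 and 128 in RPF, a fall of 0.54 ± 0.13 (adjusted p = 0.00313), with an adjusted p of 0.0592 without parental replicate 1. The small GTPases RAC1 and CDC42, which act through PAK kinases on LIMK1, fell by 0.43 ± 0.12 (adjusted p = 0.0126) and 0.39 ± 0.11 (adjusted p = 0.0182). The adjusted p of RAC1 was 0.147 without parental replicate 1, and those of CDC42 were 0.0832 and 0.0814 without parental replicates 1 and 2 and 0.106 without MDA-LM2 replicate 1. After quantile normalisation CDC42 had an adjusted p of 0.0759. In RNA DSTN fell by 0.76 ± 0.10 (adjusted p = 0.00475), CDC42 by 0.44 ± 0.15 (0.0964) and RAC1 by 0.23 ± 0.15 (0.328).

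Among stress fibre and focal adhesion partners 4 of 19 genes were higher and 5 lower in MDA-LM2 RPF, against 5% and 7.03% of all genes, with a median of -0.02. In RNA 1 was higher and 0 lower, against 5.8% and 9.44%, with a median of -0.09. TPM1, a tropomyosin that coats actin filaments, went from 17.6 and 17.8 to 44.2 and 28.6 in RPF, a rise of 0.97 ± 0.28 (adjusted p = 0.0183), and ENAH (Mena), which elongates filaments, rose by 0.76 ± 0.22 (adjusted p = 0.0219). WWTR1 (TAZ), a transcriptional coactivator that responds to tension, fell by 0.42 ± 0.14 (adjusted p = 0.043). TPM1 lost its call without MDA-LM2 replicate 1 (0.66, adjusted p = 0.317), and ENAH without that library (0.57, adjusted p = 0.263) or parental replicate 1 (adjusted p = 0.0504). WWTR1 lost it without any one of the 4 libraries, at adjusted p from 0.0699 to 0.199, and also with no filter (0.0568), equal totals (0.0833) or quantile normalisation (0.0578). The RNA of TPM1 rose by 1.03 ± 0.12 (adjusted p = 0.0027) and that of ENAH by 0.35 ± 0.11 (0.0745), while WWTR1 RNA fell by 0.29 ± 0.12 (0.138). In TE change no gene of the 3 lists passed in either comparison, with 0.0357% and 0% of all genes called.

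In the knockdown no gene of these lists passed in RPF, against 0.0233% of all genes. In RNA 0 of 13, 0 of 14 and 0 of 17 tested genes were higher, against 4.72% of all genes. Lower genes numbered 1, 3 and 8, against 11.3% of all genes. The median RNA change of the stress fibre and focal adhesion partners was -0.13, beside -0.04 over all genes. ACTN4, the actinin to which PDZ and LIM proteins dock, fell from 3679 and 3638.5 to 3192 and 3103, by 0.22 ± 0.04 (adjusted p = 4.09e-05). This call held without each library in turn. VASP, which like ENAH elongates filaments and is a partner of zyxin, fell by 0.26 ± 0.08 (adjusted p = 0.0249). PAK4, a kinase of LIMK1, fell by 0.39 ± 0.12 (adjusted p = 0.0176), CDC42BPB, another kinase upstream of LIM kinases, by 0.27 ± 0.06 (adjusted p = 0.000327), and ROCK2, a kinase that activates LIM kinases, by 0.16 ± 0.05 (adjusted p = 0.0249). AJUBA, a zyxin relative, fell by 0.21 ± 0.07 (adjusted p = 0.0258). These falls were in RNA, and the RPF changes, of which none passed, went both ways. They were 0.50 ± 0.28 for VASP, 0.39 ± 0.26 for AJUBA and 0.07 ± 0.15 for ACTN4. For PAK4, CDC42BPB and ROCK2 they were -0.30 ± 0.34, -0.43 ± 0.28 and -0.30 ± 0.27. Calls were lost for VASP without sgControl replicate 2 (adjusted p = 0.21), sgHNRNPC replicate 1 (0.138) or 2 (0.0904), and for PAK4 without sgControl replicate 1 (0.105) or sgHNRNPC replicate 2 (0.285). They were lost for CDC42BPB without sgHNRNPC replicate 2 (0.0985), for ROCK2 without sgControl replicate 1 (0.0893) or 2 (0.0848) or sgHNRNPC replicate 1 (0.267), and for AJUBA without sgControl replicate 2 (0.163) or sgHNRNPC replicate 1 (0.395). After quantile normalisation the split of called RNA changes over all genes was 229 higher and 301 lower, beside 202 and 482 as deposited, and AJUBA, ROCK2 and VASP did not pass.

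Parental and sgControl cells are both MDA-MB-231 without a guide against HNRNPC, yet the members stood at different levels in them. Since the 2 tables were normalised separately and no library links them, this was not tested. Over the 8728 transcripts of both tables with a mean RNA value of at least 10, the median ratio of parental to sgControl RNA was 1.37. Relative to that median PDLIM2 was 6.59 times, LIMK2 5.25 times, LIMK1 3.48 times, LASP1 2.26 times, PDLIM7 2.05 times and ZYX 1.51 times as high in parental cells. PDLIM1 at 1.09, PDLIM5 at 0.925 and LIMA1 at 0.735 lay near the median or below it. The range from the 5th to the 95th percentile of all these transcripts was 0.266 to 5.23, which PDLIM2 and LIMK2 alone exceeded. Members with few knockdown footprints, LIMK1, LIMK2 and PDLIM2, were also those with the lowest knockdown RNA relative to parental cells.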

How the data were processed

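The authors deposited a normalised signal per transcript, on a linear scale, in a table for each pair of lines compared. RNA and footprints came from the same lysates. Per the study's methods, RNA reads were aligned with Bowtie2 to 1 mRNA per gene and counted, footprints were trimmed, collapsed by molecular identifier and assigned to codons, and counts were scaled by median-of-ratios size factors. The submitters' processing notes name hg38, Bowtie2 2.3.5, cutadapt 2.3, SAMtools and UMI-tools, and the annotation version behind the mRNA set is not given in the sources used here. RNA values were whole multiples of 1 step per library, within a tolerance of 0.01, which gave the read totals. RPF values followed no such step, so no counting interval was computed.

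Identifiers were matched to GENCODE 44 on hg38 (97.9% of transcripts in each table), from which symbols, coordinates, lengths and sequences were taken. Samples were grouped by their titles. RNA and RPF changes were tested in the 4 libraries of each kind and TE in a line by kind interaction over the 8 libraries of a table, with limma 3.58.1 and statmod 1.5.0 in R 4.3.3, a trend, and log2 of the value plus 1. All tests were two-sided. The difference of a member from PDLIM5 was to be fitted on within-library ratios, but on simulated tables that fit called many unchanged genes. It was replaced by the difference of both changes over their combined moderated standard errors, which called none there. PDLIM5 itself was left unchanged in the simulated tables, so they do not test the case of a reference gene that changes. Levels and figures used Python 3.11.15, numpy 2.4.6, pandas 2.3.3 and matplotlib 3.10.9.

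The members and lists were chosen with earlier results of these data known. The text names all members, HNRNPC, up to 3 called genes per related list with the largest absolute change (by RPF, or by RNA where none was called in RPF) and the 5 genes nearest to PDLIM5. A gene that this rule names is not reported here. The alternatives were another added value, filter, scaling, moderation, the replicate number as a term, TE within lysates, logistic regression, and each library left out. No batch is given by the labels.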

Additional observations from a re-analysis of the deposited data

How the results depend on the processing

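Of 148 recomputed counts of members, 129 stayed within 1.5 times the reported count. With 1 library left out at a time, the members called in MDA-LM2 cells numbered 1 to 5 in RNA, 1 to 2 in RPF and 0 in TE, and in the knockdown 1 to 2 in RNA, 0 to 1 in RPF and 0 in TE. Members that differed from PDLIM5 then numbered 2 to 7 in RNA and 5 to 6 in RPF in MDA-LM2 cells, and 4 to 5 in RNA, 0 to 4 in RPF and 0 to 4 in TE in the knockdown. A lone library was taken to vary like the other line, so calls in these fits rest on the spread of that other line. Logistic regression called 1 member in MDA-LM2 TE (ZYX) and 181 genes in all, against 3 by limma, and 11 against 0 in the knockdown. With no filter 2 members were called in knockdown RNA, PDLIM5 and LIMK1. With a minimum mean of 50, PDLIM5 itself left the knockdown table, 669 genes were tested, and 0 members were called in RNA. LASP1 was the only member left, with RPF means of 54.2 in sgControl and 61.5 in sgHNRNPC cells. Differences from PDLIM5 could not be computed there, and their counts of 0 are among the 148 recomputed counts.

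The replicate numbers shared by the groups were not shown to pair them: deviations of same-numbered libraries correlated at 0.23 in RNA and 0.04 in RPF in the MDA-LM2 table, and at -0.00 and 0.03 in the knockdown table. With a replicate block 1 member was called in knockdown RPF, PDLIM5, at -1.06 (adjusted p = 0.0131), where 12 genes were called in all, and the other member counts stayed within 1.5 times. It also called HNRNPC in MDA-LM2 RNA (adjusted p = 0.0363) and ENPP1 in knockdown RPF (adjusted p = 0.0235), and changed the call of no other named gene.

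Over all genes, leaving out a library gave 492 to 4235 calls in MDA-LM2 RNA against 1279 reported, 641 to 855 in MDA-LM2 RPF against 1010, 371 to 569 in knockdown RNA against 684, and 0 to 41 in knockdown RPF against 1. A minimum mean of 50 gave 440 calls among 3511 genes in MDA-LM2 RNA and 228 among 669 in knockdown RNA. TE within each lysate gave 10 calls in MDA-LM2 cells.

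These changes turned sign, all of values not called. With equal totals, LIMK2 RNA was 0.081 and PDLIM1 RPF 0.018 in MDA-LM2 cells. In the knockdown, quantile normalisation gave -0.012 for PDLIM7 RPF and -0.028 for ZYX TE, and logistic regression 0.034 for PDLIM7 TE. With a library left out, changes in MDA-LM2 cells ranged from -0.18 to 0.0081 for LIMK2 RNA, from -0.20 to 0.12 for PDLIM1 RPF, from -0.16 to 0.011 for LASP1 TE and from -0.14 to 0.48 for PDLIM1 TE. In the knockdown they ranged from -0.58 to 0.65 for PDLIM7 RPF, from -0.056 to 0.14 for ZYX TE, from -0.69 to 0.53 for PDLIM7 TE, from -0.0094 to 0.085 for ZYX RNA, from -0.59 to 0.13 for PDLIM1 TE and from -0.14 to 0.043 for COPRS RNA. The ranges were -1.005 to 0.012 for PDLIM1 RPF, -0.079 to 0.67 for LIMA1 RPF, -0.038 to 0.37 for LASP1 RPF and -0.22 to 0.56 for LIMA1 TE. The cause was not tested.

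The edgeR and DESeq2 fits planned on recovered RNA reads were not run. The depth of the footprints in reads is unknown in both tables. PDLIM2 in both tables, and LIMK1 and LIMK2 in the knockdown table, were under the filter on low values and were not tested.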
